A study of Mus musculus with 2 samples.

Results

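The nuclear genes for subunits of respiratory complex I were followed in total RNA sequencing of mouse heart. The 35 genes were taken from a list of symbols, all 35 were found, and they stand among 55536 annotated genes in the tables. They comprise 6 core subunits and 29 accessory subunits. Subunits outside the list are not analysed here.

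The study holds 1 group, heart tissue of 14-day-old female mice of strain B6CASTF1/J, a cross of C57BL/6J with CAST/EiJ, with no other allele or treatment in the labels. It has 2 libraries, replicates 1 and 2, with an input of 300 ng of RNA each and added ERCC spike-ins. The labels give the libraries separate tissue samples under 1 donor identifier, and the sample text can be read as a pool of 3 females for 1 of them, so the spread between libraries may be partly technical. With 1 group there was no comparison between conditions and no test, and differences are described. In bulk tissue, fewer cells of a type and less RNA per cell cannot be told apart.

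Complex I passes electrons from NADH to ubiquinone in the inner mitochondrial membrane and pumps protons as it does so. Its core subunits hold the flavin and the iron-sulfur clusters in a matrix arm and the proton channels in a membrane arm. The channel subunits are encoded by mitochondrial DNA, the electron-carrying ones by nuclear genes. Accessory subunits surround the core, hold it together and are needed for its assembly. The N module takes up NADH, the Q module hands electrons to ubiquinone, and the proximal and distal parts of the membrane arm carry the pumps. Heart muscle depends on oxidative phosphorylation, and its mitochondria are rich in the complex.

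Of 36197643 expected counts of annotated genes in replicate 1 and 34358598 in replicate 2, the 35 genes took 209300 (0.578%) and 207984 (0.605%). Cardiomyocyte markers had a median level of 5007 TPM in replicate 1 and 5327 TPM in replicate 2 (6 of 6 markers at 1 TPM or more). Skeletal muscle markers had none of 4 at that level on average. The 3 airway markers stood apart between the libraries, with a summed level of 163 TPM in replicate 1 and 9.06 TPM in replicate 2. The summed level of the brown fat markers was 65.4 TPM in replicate 1 and 88.0 TPM in replicate 2. The part of these in the results was not tested.

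Every one of the 35 genes was highly expressed. TPM is a level corrected for mRNA length and library size. Among 11714 detected nuclear protein-coding genes, the 35 all stood at or above percentile 90. The median level over the 35 was 308 ± 4.85 TPM (SD, n = 2 libraries). The spread among genes was wide, from 51.7 TPM for Ndufb4 to 763 TPM for Ndufa3, a 14.8-fold range. The level of Ndufb4 is uncertain, as described below. In the second quantification, also described below, levels ran from 167 TPM for Ndufb3 to 1209 TPM for Ndufb8, a 7.23-fold range.

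The 6 core genes had a median of 324 ± 5.38 TPM, against 293 ± 11.1 TPM for the 29 accessory genes (SD, n = 2 libraries). The log2 ratio of core over accessory medians was 0.15 ± 0.03. The 6 core genes spanned a 2.44-fold range and lay inside that of the 29 accessory genes, which spanned 14.8-fold, or 7.51-fold without Ndufb4, whose level is uncertain. In the second quantification the core genes spanned 3.65-fold (216 to 791 TPM) and the accessory genes 7.23-fold (167 to 1209 TPM). With fewer core than accessory genes, these ranges are not tested against each other. On counts with no length correction the log2 ratio was 0.99, and core coding parts are longer, with a median of 769.5 bases in core genes, against 414 bases in accessory genes.

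In the first quantification Ndufv1, which binds NADH and the flavin, led the core genes with 444 and 473 TPM in replicates 1 and 2. Ndufv2, its partner in the N module and the holder of an iron-sulfur cluster, had 453 and 447 TPM. These values overlapped, so their order is not resolved. Ndufs1, the largest subunit, had 325 and 327 TPM, and Ndufs3 of the Q module had 315 and 328 TPM. Ndufs1 and Ndufs3 overlapped too. Ndufs7 and Ndufs8 carry the iron-sulfur clusters nearest the ubiquinone site. Ndufs7 had 305 and 311 TPM, below both Ndufs1 and Ndufs3. Ndufs8 (chr19:3908863-3912774, mm10) had 184 and 191 TPM, the lowest core values in both libraries. In the second quantification, described below, the core order differed. Ndufv2 led with 791 and 790 TPM, above Ndufv1 with 636 and 706 TPM. Ndufs3 had 518 and 594 TPM. Ndufs7, with 384 and 401 TPM, lay above Ndufs1, with 329 and 339 TPM. Ndufs8 was again the lowest, with 206 and 227 TPM. Within the N module, the median in the first quantification was 446 ± 2.14 TPM for the 3 core genes and 269 ± 0.24 TPM for the 7 accessory genes. In the Q module the order was the other way, with 308 ± 4.85 TPM for the 3 core genes and 402 ± 13.2 TPM for the 2 accessory genes, Ndufa5 and Ndufa9.

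Among accessory genes the highest levels in the first quantification belonged to 3 membrane-arm subunits and to the acyl carrier protein. Ndufa3, a subunit of the proximal membrane arm, had 781 and 746 TPM. Ndufb8, a subunit of the distal membrane arm, had 716 and 721 TPM. The order of Ndufa3 and Ndufb8 was the same in both libraries. Ndufab1, the mitochondrial acyl carrier protein, had 609 and 631 TPM. Ndufc1 had 597 and 620 TPM, so it overlapped Ndufab1. In the second quantification, described below, the highest accessory genes were Ndufb8, Ndufb9, Ndufv3 and Ndufa5, while Ndufa3, Ndufab1 and Ndufc1 ranked 15, 12 and 11 of 35.

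At the low end, Ndufb4 (chr16:37647170-37654453, mm10) had 52.0 and 51.5 TPM, and Ndufb3 had 100.2 and 103 TPM. Both are distal membrane-arm subunits. Ndufs5, a subunit of the intermembrane-space side, had 155 and 172 TPM, and Ndufa13, also known as GRIM-19, had 169 and 176 TPM. These last genes overlapped in level. In the second quantification Ndufs5 ranked 24 of 35, with 315 and 366 TPM, and its level is uncertain too, as described below. There Ndufb4 ranked 28, Ndufa13 33 and Ndufb3 35. By position in the complex the medians were closer together than the genes themselves. In the first quantification they were 339 TPM in the proximal membrane arm (9 genes) and 307 TPM in the N module (10). The Q module (5) had 308 TPM and the distal membrane arm (10) 294 TPM, with Ndufab1 counted apart at 620 TPM. The distal arm held both Ndufb8 and Ndufb4 and spanned 13.9-fold, a range that rests on the uncertain level of Ndufb4. In the second quantification its ends were Ndufb8 and Ndufb3, and it spanned 7.23-fold. The order of the medians by position also differed between the quantifications. In the second the proximal arm had the lowest median, 352 TPM, and the distal arm the highest, 444 TPM. The N and Q modules lay between them, with Ndufab1 again counted apart. The order by position is therefore not resolved.

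**Figure D1:**
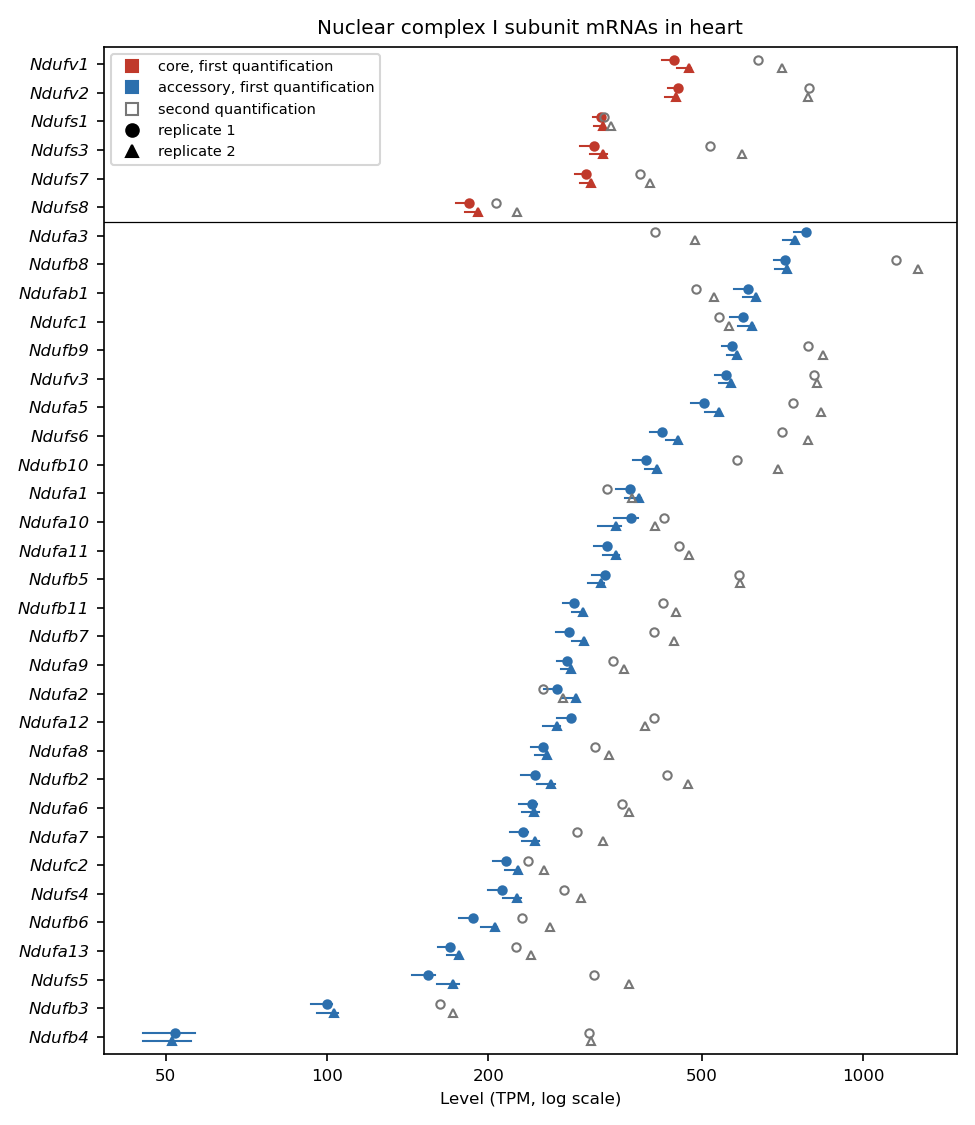
Level of each gene in TPM (log scale), core genes above the line and accessory genes below it, each ordered by level. Filled points are the first quantification with the deposited interval around its posterior mean, open points the second quantification, circles replicate 1 and triangles replicate 2. The 6 core genes fall within a 2.44-fold range and the 29 accessory genes within a 14.8-fold range (7.51-fold without Ndufb4), and Ndufb4 is the gene whose open and filled points lie farthest apart.

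Ndufb4 shares its coding sequence with another gene. Ndufb4c, a processed pseudogene on another chromosome (chr15:73809507-73809896, mm10, minus strand), matched all 390 coding bases of Ndufb4 with 0 mismatches, so no read inside the coding part can be assigned by the annotated sequence. Of 291 windows of 100 bases in that coding part, 291 were identical. The 120 bases from the start codon are shown for both, to make the identity visible (GENCODE M21 transcripts, chromosome 16 for Ndufb4 and 15 for Ndufb4c).
Ndufb4: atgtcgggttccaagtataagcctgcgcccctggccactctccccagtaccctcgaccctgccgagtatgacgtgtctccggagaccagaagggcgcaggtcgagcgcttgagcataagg
Ndufb4c: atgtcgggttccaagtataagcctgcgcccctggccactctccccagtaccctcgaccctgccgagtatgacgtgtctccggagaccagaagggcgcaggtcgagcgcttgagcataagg
The first quantification gave Ndufb4 983 and 981 counts and Ndufb4c 1871 and 1829 counts in replicates 1 and 2. The pseudogene thus held 65.6% and 65.1% of the counts of the pair. The second quantification gave Ndufb4 1694 and 1619 counts and listed Ndufb4c at 0. The tables do not say which of the genes the reads came from.

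Other genes had copies that differ at a few bases. BC002163, a processed pseudogene (chr16:42955631-42955949), aligned to 319 of 321 coding bases of Ndufs5 with 2 mismatches. Gm15920 (chr5:130188395-130188796) aligned to 402 coding bases of Ndufa12 with 2 mismatches, and Gm4459 (chr7:139659688-139660155) to 468 coding bases of Ndufab1 with 1. The windows below hold such mismatches in capitals, the bases at which the annotated sequences differ there (GENCODE M21, mm10). Ndufs5 is on chromosome 4, Ndufa12 on 10 and Ndufab1 on 7. Whether CAST/EiJ alleles carry the same bases was not examined.
Ndufs5: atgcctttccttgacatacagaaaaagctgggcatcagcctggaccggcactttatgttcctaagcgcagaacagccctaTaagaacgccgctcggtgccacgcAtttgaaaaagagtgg
BC002163: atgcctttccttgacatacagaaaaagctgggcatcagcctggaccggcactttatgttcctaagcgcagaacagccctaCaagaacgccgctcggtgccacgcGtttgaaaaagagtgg
Ndufa12: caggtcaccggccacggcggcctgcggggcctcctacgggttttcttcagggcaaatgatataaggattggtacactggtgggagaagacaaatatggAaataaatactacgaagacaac
Gm15920: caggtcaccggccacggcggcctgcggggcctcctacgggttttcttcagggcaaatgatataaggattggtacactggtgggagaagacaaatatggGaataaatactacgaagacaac
Ndufab1: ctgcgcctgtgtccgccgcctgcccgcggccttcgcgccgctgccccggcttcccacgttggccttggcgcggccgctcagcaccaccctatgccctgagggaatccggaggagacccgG
Gm4459: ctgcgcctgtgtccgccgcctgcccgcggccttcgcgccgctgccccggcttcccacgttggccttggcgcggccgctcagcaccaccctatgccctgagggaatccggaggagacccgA
BC002163 took 670 and 642 counts in the first quantification, 26.4% and 24.3% of its pair with Ndufs5, and was listed at 0 in the second. Gm15920 took 627 and 505 counts in the first quantification and 468 and 418 in the second. Gm4459 went the other way, with 155 and 164 counts in the first and 1080 and 1121 in the second. The levels of Ndufb4, Ndufs5, Ndufa12 and Ndufab1 are therefore uncertain by the share of such copies. In the first quantification 26 of the 35 genes had whole counts in both libraries, within 0.005, and 9 did not.

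**Figure D2:**
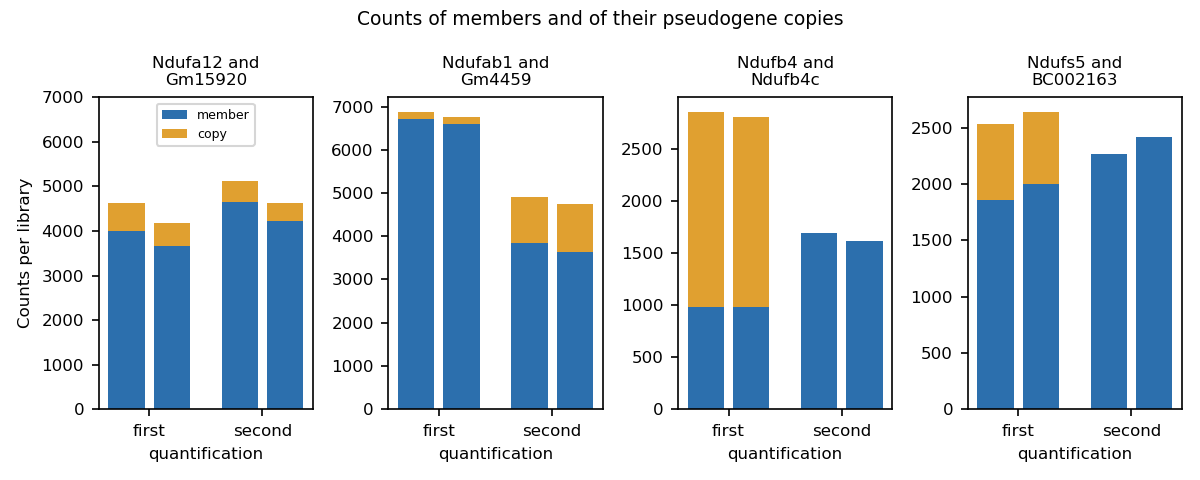
Counts per library of 4 genes (blue) and of their pseudogene copies (orange, stacked), replicates 1 and 2 side by side under the first and then the second quantification. The orange part is the larger one for Ndufb4 in the first quantification and absent for Ndufb4 and Ndufs5 in the second.

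The tables hold each library quantified in 2 ways. The columns of the first are those that RSEM writes, and those of the second are those that kallisto writes. The sources used here do not name the programs. They differ in effective length, the number of positions from which a fragment could start. In the first it was 99 bases below transcript length for each of the 173 transcripts of the 35 genes. In the second the longest of them lay 335 and 334 bases below. For a short mRNA this difference is a large share of the length.

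Among the 6 genes with 1 annotated transcript, the shortest differed most in counts. Ndufa1, an X-linked membrane-arm subunit with 1 annotated transcript of 419 bases, had 3303 and 3315 counts in the first quantification, against 1123 and 1150 in the second. That is 2.91-fold more counts in the first. Its effective length was 320 bases in the first and 116 bases in the second, 2.75 times longer in the first. Its levels were close, with 367 and 382 TPM in the first quantification and 333 and 371 TPM in the second. Ndufa2, an N module subunit with 1 transcript of 572 bases, had 3572 and 3734 counts in the first and 1732 and 1776 in the second, and again similar levels of 269 and 291 TPM against 253 and 276 TPM. Ndufa13, with 1 transcript of 1251 bases, had 5488 and 5503 counts in the first and 5912 and 5913 in the second. The other genes with 1 transcript, Ndufa8, Ndufb3 and Ndufb11, had count ratios between those of Ndufa13 and Ndufa8, where the first gave 5406 and 5326 counts and the second 4766 and 4752.

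Across the 35 genes, counts were higher in the first quantification for 22 and lower for 13, with no share over all coding genes to set beside them. Gene length here is the one deposited with the first quantification, and it follows how that quantification divided reads among transcripts. Ndufa3, at 353 bases, was led by a transcript of 343 bases in the first and of 782 bases in the second. Below 500 bases the median log2 ratio of counts was 0.47 for 6 of the genes, beside 0.56 for all 117 coding genes of that length. Between 500 and 700 bases it was 0.39 for 14 of the genes, beside 0.17 for all 266. Between 700 and 1000 bases it was -0.05 for 10 of the genes, beside 0.03 for all 675. Gene length and the log2 count ratio had a Spearman rho of -0.51 over the 35 genes, which share libraries and reads. Both quantities draw on the first quantification, so they are not independent.

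After length correction the pattern was weaker. TPM ratios of the first over the second quantification were centred on the median of 11650 coding genes, a shift of -0.26 on the log2 scale. Of the 35 genes 26 lay below 0 and 9 above, with a median log2 ratio of -0.24. Ndufa3 alone was at least 2-fold higher in the first, as were 0.618% of all coding genes. Ndufb4 alone was at least 2-fold lower, as were 0.738% of all coding genes. These calls depend on the centring. Without it the log2 ratio of Ndufa3 was 0.77, under 2-fold, and that of Ndufs5 was -1.06, over 2-fold lower. The order of levels was similar in both, with a Spearman rho of 0.85 over the 35 genes.

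Ndufa3 had 781 and 746 TPM in the first quantification and 409 and 485 TPM in the second, a centred log2 ratio of 1.03. It ranked 1 of 35 in the first and 15 in the second, and without replicate 1 it was under 2-fold. Ndufab1 followed at 0.55, Ndufc1 at 0.40 and Ndufa1 at 0.35. These 4 are among the 6 genes with a gene length below 500 bases. The other 2 lay on the other side, Ndufa5 at -0.34 and Ndufb2 at -0.58, so length alone did not order the TPM ratios. At the other end, Ndufb4 had 52.0 and 51.5 TPM in the first and 309 and 311 TPM in the second, a centred log2 ratio of -2.33. With the TPM of its copies joined to Ndufb4 in both, the ratio was 0.12. Ndufs5 stood at -0.80 and, joined to BC002163, at -0.07. Ndufab1, at 0.55 on its own, stood at -0.02 with its copies joined. Ndufa12 moved away from 0, from -0.27 on its own to -0.41 joined to Gm15920. Ndufb5, with 330 and 325 TPM in the first and 587 and 589 TPM in the second, stood at -0.59. Ndufb2, with 244 and 262 TPM in the first and 432 and 471 TPM in the second, was the next. The highest gene of the second quantification was Ndufb8, with 1151 and 1267 TPM, and the lowest was Ndufb3, with 162 and 172 TPM.

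The median centred log2 ratio was -0.19 for the core genes and -0.24 for the accessory genes. Ndufv2 (-0.56) and Ndufs3 (-0.53) were the lowest core genes, and Ndufs1, the longest mRNA, was the highest at 0.22. In the second quantification the log2 ratio of core over accessory levels was 0.21.

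**Figure D3:**
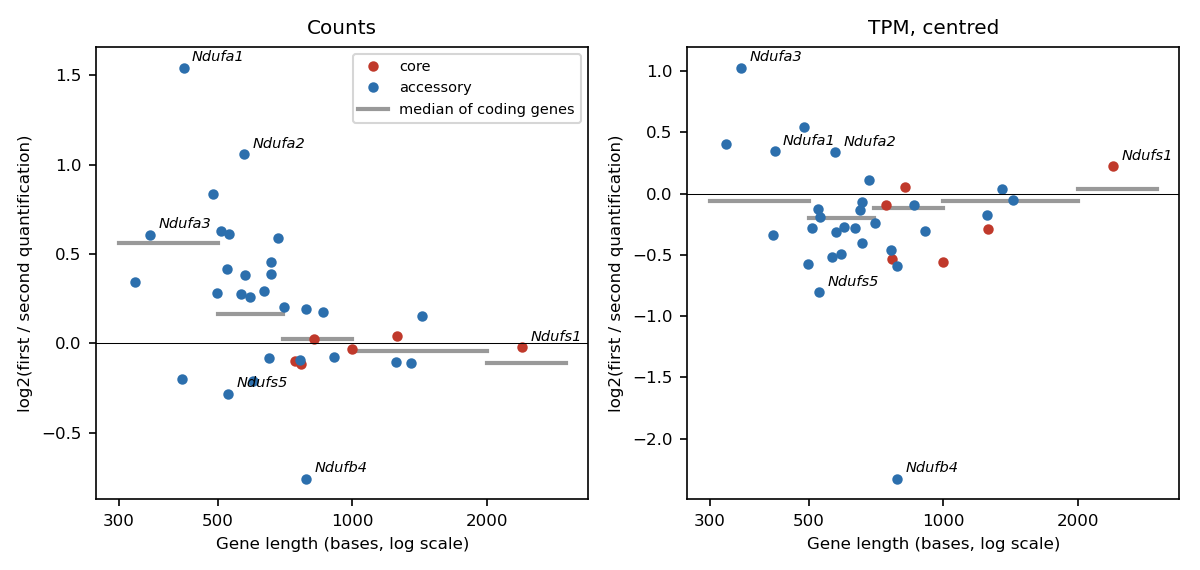
Log2 ratio of the first over the second quantification against gene length in bases (log scale), for counts (left) and for centred TPM (right), with core genes in red and accessory genes in blue. Gene length is that of the first quantification. Grey bars are medians of all coding genes in 5 bands of length. Count ratios of short genes lie mostly above 0, and after length correction Ndufa3 (1.03) and Ndufb4 (-2.33) stand outermost.

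The genes differed in how much of their RNA was assigned to transcripts annotated as protein-coding. Their median coding share of TPM was 95.1% ± 0.47 in the first quantification (SD, n = 2 libraries). The share was under 80% in 13 of 35 genes in the first quantification, beside 32.2% of 11714 detected coding genes, and in 14 of 35 in the second, beside 36.3% of 11650. The same 12 genes were under it in both. Reads of these short genes are divided between overlapping transcripts by each program. Both named 1 leading transcript in common for 20 of the 29 genes with more than 1 transcript, with no share over all genes beside it.

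3 core genes were among the 13. Ndufs3 had a coding share of 51.6% and 52.6% in replicates 1 and 2, Ndufs7 had 70.7% and 66.8%, and Ndufv1 had 69.1% and 69.4%. In Ndufs3 a processed transcript of 409 bases, Ndufs3-204, held 34.0% and 37.1%. Ndufs7 kept a similar coding share in the second quantification, 73.8% and 64.5%, but its leading coding transcript was another one. Ndufs7-201 held 68.4% in the first quantification and 11.7% in the second, while Ndufs7-202, with the same number of coding bases, held 0.345% in the first and 57.4% in the second.

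5 accessory genes were led by a transcript not annotated as protein-coding in the first quantification. Ndufa3-204, 343 bases long and annotated as subject to nonsense-mediated decay, held 93.7% and 92.7% of Ndufa3, so its coding share was 6.08% and 6.99%. In the second quantification that transcript held 23.0% and 41.1%, and Ndufa3-205, with a retained intron, held 57.8% and 46.6%. Ndufs4, a subunit mutated in Leigh syndrome in humans, had a coding share of 12.6% and 14.3% in the first quantification and 12.7% and 13.3% in the second. Its leading transcript, Ndufs4-204, is annotated for nonsense-mediated decay and held 51.8% and 53.1% in the first. For Ndufs4 both quantifications gave the same transcript the largest share. Ndufa5 had a coding share of 31.8% and 32.7%, Ndufab1 30.9% and 30.7%, and Ndufc1 35.1% and 36.8%. Ndufc1 showed how far the division can turn. Its retained-intron transcript of 311 bases held 58.9% and 58.0% in the first quantification and 0 in the second, where Ndufc1-202, a processed transcript, held 97.0% and 96.9%.

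The remaining genes under 80% in the first quantification were Ndufa10 (40.5% and 50.5%), Ndufb4 (59.5% and 65.3%), Ndufb8 (70.7% and 74.4%), Ndufb10 (75.4% and 73.3%) and Ndufs6 (79.0% and 79.4%). In the second quantification Ndufa10 had 38.7% and 44.5%, Ndufb4 8.70% and 9.37%, Ndufb10 36.0% and 32.2% and Ndufs6 60.0% and 54.1%. Ndufb8 was the one of the 13 that was above 80% in the second, with 83.6% and 80.9%. Ndufa7 and Ndufb2 were under 80% in the second quantification alone. Ndufa7, an N module subunit, had 91.5% and 91.7% in the first quantification and 3.94% and 4.29% in the second. Ndufb2 had 82.3% and 83.6% in the first quantification and 24.4% and 22.5% in the second.

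Ndufv3 and Ndufv2, both of the N module, have annotated coding forms of unlike length. Ndufv3 makes a short and a long protein through a large optional exon. The short form, Ndufv3-202 with 315 coding bases, held 98.5% and 98.7% in the first quantification and 98.6% and 98.8% in the second. The long form, Ndufv3-201 with 1407 coding bases, averaged 1.23% in the first and 1.01% in the second. For Ndufv2 the leading transcript, Ndufv2-201, held 88.6% and 88.5% in the first quantification and 64.9% and 66.0% in the second. Its annotated coding part is 459 bases, while the transcript with the longest coding part, 747 bases, held 10.1% in both libraries in the first and 0.79% and 0.65% in the second. In 9 of the 35 genes the leading transcript of the first quantification was not a protein-coding transcript with the longest coding part of its gene. The share over all genes is not given here.

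**Figure D4:**
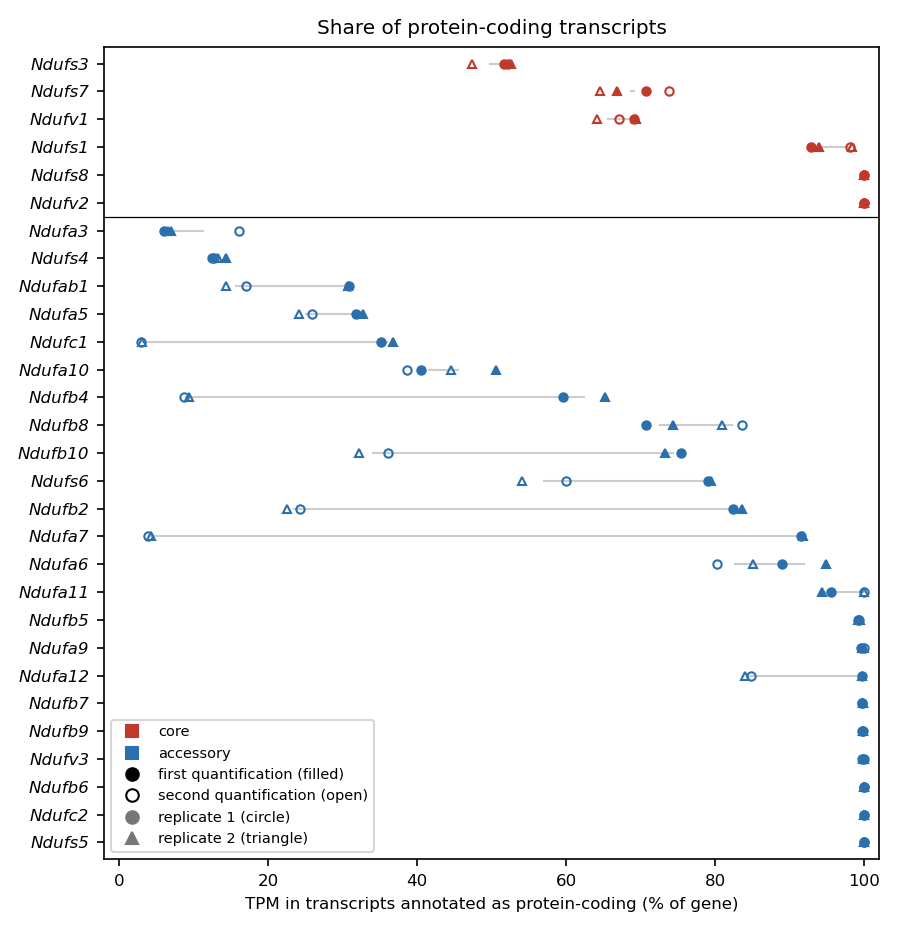
Percent of each gene's TPM in protein-coding transcripts, for the 29 genes with more than 1 annotated transcript, core genes above the line and accessory genes below it. Filled points are the first quantification and open points the second, circles replicate 1 and triangles replicate 2. Replicates lie close together for most genes, while Ndufa7, Ndufb2, Ndufb4, Ndufb10 and Ndufc1 are far lower in the second quantification.

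The libraries differed little for these genes. CPM, the count scaled to the library total of annotated genes, was lower in replicate 1 than in replicate 2 for 33 of 35 genes, beside 63.3% of 12876 genes with a mean of at least 50 counts, and higher for 2, beside 36.7%. The median ratio of replicate 1 over replicate 2 was 0.951, and ratios ran over 0.885 to 1.03. None was at least 1.2-fold apart, as were 20.6% of all those genes. For 25 of 35 the 95% Clopper-Pearson interval of the ratio left out 1, beside 36.1% of all genes. That interval covers counting error only. Both shares depend on count depth. The background begins at a mean of 50 counts, while Ndufb4, the lowest of the 35, had 983 and 981. With no filter on low counts, 40.0% of all genes were at least 1.2-fold apart. Genes with like counts were not compared. The median log2 ratio was -0.07 for the 35 genes, while all genes had a median of -0.05. It was -0.03 with TMM scaling and -0.01 with DESeq2 size factors.

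Ndufs5 had the largest difference, with 1864 counts in replicate 1 and 1999 in replicate 2, a CPM ratio of 0.885 (95% interval 0.831 to 0.943). Ndufb6 followed with 2943 and 3115 counts and a ratio of 0.897 (0.852 to 0.943). Ndufa2 had a ratio of 0.908 and Ndufs4, with 3263 and 3406 counts, one of 0.909. The genes above 1 were Ndufa12 at 1.03 and Ndufa3 at 1.02, and both intervals held 1. Core and accessory genes had median log2 ratios of -0.06 and -0.07.

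**Figure D5:**
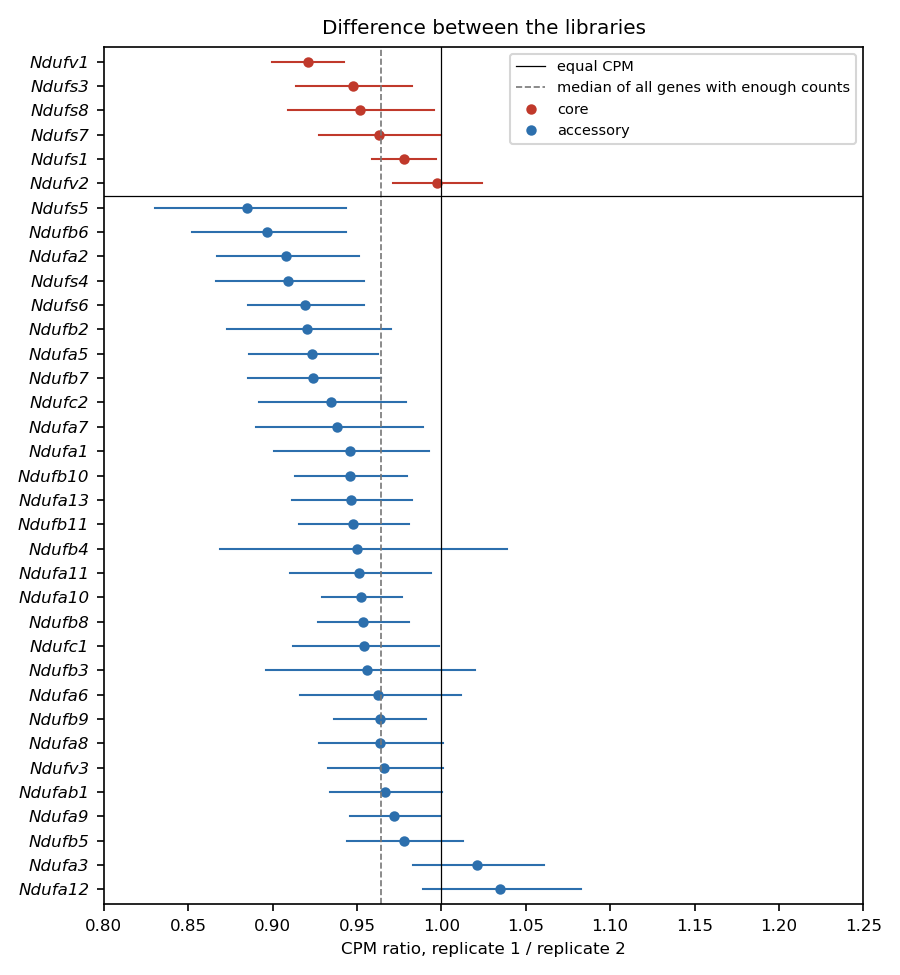
CPM ratio of replicate 1 over replicate 2 for each gene with its 95% counting interval, core genes above the line and accessory genes below it, each ordered by ratio. The solid line marks equal CPM and the dashed line the median of all genes with a mean of at least 50 counts. The ratios run over 0.885 to 1.03, and 33 of 35 lie below 1.

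The mitochondrially encoded partners of the same complex were far more abundant. The 7 mitochondrial subunits had a median of 7005 ± 508 TPM, against 308 ± 4.85 TPM for the 35 nuclear genes (SD, n = 2 libraries), a log2 ratio of 4.51 ± 0.13. The gene at the median was mt-Nd5 in replicate 1 and mt-Nd4l in replicate 2, so that SD sets different genes side by side. The level of mt-Nd4l is uncertain, as described below. In the second quantification the median was 6445 TPM and the log2 ratio 3.98. The 7 mitochondrial subunits took 3.14% and 2.87% of the counts of annotated genes. mt-Nd1 had 10391 and 9798 TPM in replicates 1 and 2, the highest, and mt-Nd6, the one encoded on the other strand, had 1311 and 1062 TPM, the lowest. In between, mt-Nd4 had 8613 and 7236 TPM, mt-Nd5 had 7364 and 6908 TPM, mt-Nd3 had 4960 and 4971 TPM and mt-Nd2 had 4779 and 3993 TPM. These genes ran against the nuclear ones between libraries. Their CPM ratio of replicate 1 over replicate 2 was above 1 for all except mt-Nd3, which stood at 0.981, and reached 1.21 for mt-Nd6. mt-Nd4l, short and overlapping mt-Nd4, was the extreme case of a difference between quantifications. It had 42990 and 35708 counts in the first and 193 and 159 in the second, or 7724 and 6646 TPM against 103 and 93.8 TPM.

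Assembly factors, which build the complex and leave it, were expressed at a lower level. Of 18 listed, 17 were found, with a median of 24.6 ± 1.93 TPM. The highest were Foxred1 (40.6 and 40.1 TPM), Tmem70 (38.0 and 39.7 TPM) and Ecsit (38.4 and 38.5 TPM). The lowest were Nubpl (3.63 and 3.67 TPM), which delivers iron-sulfur clusters, Tmem186 (6.54 and 7.06 TPM) and Tmem126b (9.52 and 8.55 TPM). No assembly factor reached the level of Ndufb4 in the first quantification.

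Subunits of the next complexes in the chain were as high or higher. The 4 subunits of complex II, succinate dehydrogenase, had a median of 412 ± 7.25 TPM. Sdha, its flavin subunit, had 561 and 565 TPM, Sdhc had 422 and 431 TPM, Sdhb averaged 397 ± 7.78 TPM and Sdhd had 303 and 320 TPM. The 9 nuclear subunits of complex III had a median of 617 ± 30.4 TPM. Uqcrq (992 and 1073 TPM), Uqcrc1 (943 and 947 TPM) and Uqcrh (766 and 797 TPM) were the highest, and Cyc1 (468 and 519 TPM), Uqcrfs1 (445 and 469 TPM) and Uqcrc2 (450 and 434 TPM) the lowest. In the second quantification the median of the 35 complex I genes was 409 TPM, that of complex II 425 TPM and that of complex III 997 TPM.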

How the data were processed

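Both libraries were used as deposited. Gene tables and 1 set of transcript tables (the first quantification) hold expected counts that the authors did not normalize, per the file headers. Their TPM column, per the file headers, is scaled by effective length to a fixed sum per library. The deposited interval bounds around a posterior mean TPM serve as a score of precision. The deposited percent column gives each transcript's part of its gene. The other transcript tables (the second quantification) carry estimated counts and TPM, as deposited by the authors, and were summed here by gene. Neither the programs nor the treatment of CAST/EiJ alleles is named in the sources used here. Readme files beside the tables name mm10 and GENCODE M21. With 34569708 or more counts per library, counting error for these genes is small.

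Library ratios used CPM over annotated genes with Clopper-Pearson intervals. Tested on simulated data, that computation returned known ratios. Scaling alternatives came from edgeR 4.0.16 (TMM) and DESeq2 1.42.0 under R 4.3.3. Other steps used scipy 1.17.1, Biopython 1.88, matplotlib 3.10.9, pandas 2.3.3 and numpy 2.4.6 under Python 3.11.15. Copies were found by shared 50-base windows of coding sequence in GENCODE M21 transcripts. Values by library are given for the core genes, the 4 highest and lowest accessory genes, the 4 largest differences between libraries and between quantifications in each direction, genes with a coding share under 80%, and the extremes of the other lists. The genes, lists, thresholds and alternatives were chosen with earlier results of these data known. The copies joined to their gene, and the letters around start codons, were examined after the data were seen.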

Additional observations from a re-analysis of the deposited data

How the results depend on the processing

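The log2 ratio of core over accessory levels, 0.15, was 0.21 with TPM of the second quantification, 0.99 with counts and no length correction, 0.21 with protein-coding transcripts alone and 0.019 with counts of the first quantification over effective lengths of the second. It ran over 0.12 to 0.17 with 1 library left out and stayed within 1 SD of the main value with posterior means and with log2(TPM + 1). The median log2 ratio between the libraries, -0.07, was -0.031 with TMM factors, -0.013 with DESeq2 size factors, -0.054 with TPM and -0.053 with log2(TPM + 1). At 1.1-fold in place of 1.2-fold, 3 genes were apart between the libraries. Between the quantifications 2 genes were 2-fold apart. With no centring there were also 2, but with Ndufs5 in place of Ndufa3. The number of genes apart was 4 at 1.5-fold, 6 with effective lengths of the second quantification on counts of the first, 1 with copies joined to their gene (an alternative chosen after the data were seen), and 1 to 2 with 1 library left out. For these alternatives, and for 1.1-fold between the libraries, shares over all genes are not given here. The log2 ratio of mitochondrial over nuclear levels, 4.51, was 3.98 in the second quantification and ran over 4.42 to 4.60 with 1 library left out. The median coding share, 95.1%, was 98.2% in the second quantification and 82.1% for the leading coding transcript alone, and ran over 94.8% to 95.5% with 1 library left out. The causes were not tested beyond what the construction of each alternative shows. No paired analysis was possible because the study has 1 group. A count of 0 would allow 3 counts, far below the counts of these genes. For genes with copies or several transcripts the values depend on how each program divided the reads.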

Other observations

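The genes shared letters around their start codons that played no part in choosing them. The motif AANATGGCG, a form of the YY1 site read here on the sense strand and with the start codon inside it, lay over the annotated start codon of 9 of 35 genes, or 25.7%. It lay there in 460 of 20698 protein-coding genes with a start codon in the annotation, or 2.22%. Among core genes 2 of 6 had it, against 7 of 29 accessory genes. The position was looked at after motif matches near transcript starts had been seen, so it is a description, and a match is no evidence of binding. The 30 bases around the start codon are shown for 8 of the 9, with the motif in capitals (GENCODE M21, mm10, from the transcript with the longest coding part among those with at least 12 bases before an ATG start; Ndufa6 on chromosome 15, Ndufa7 on 17, Ndufa9 on 6, Ndufc1 on 3, Ndufs3 on 2, Ndufs4 and Ndufs6 on 13 and Ndufs7 on 10).
Ndufa6: ttcctcggcAAGATGGCGgccgcggccacc
Ndufa7: agcggaaggAATATGGCGtccgctactcgc
Ndufa9: ttgtgggagAAGATGGCGgccgccgtccgc
Ndufc1: ctgcggaacAAGATGGCGccgtccgtagtg
Ndufs3: acactaaggAACATGGCGgcggctgcagcc
Ndufs4: gcctacaggAAGATGGCGgcggtctcaatg
Ndufs6: gtcaccggcAAGATGGCGgcggtgctgacc
Ndufs7: gccgaggccAAGATGGCGgcgctggcggct
These genes had no common level. Ndufs4 averaged 219 TPM and Ndufc1 608 TPM. These are levels of whole genes, not of the transcripts shown. Ndufs4-201 and Ndufc1-201, the transcripts shown for them, held 1.605% and 0.32% of their genes in the first quantification. In the second they held 12.7% and 3.08%.

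In RefSeq promoter windows (GRCm38.p6, 250 bases before to 50 after a gene's start, 32 of the 35 genes matched), searched on both strands, AANATGGCG occurred in 7 of 32 genes (21.9%) and in 2.76% of 27025 genes. All of these members but Ndufb11, where it lay at -211 from the start, are among those shown above with the motif over the start codon. The counts for start codons and for promoter windows therefore overlap and are not separate observations. The NRF1 motif also occurred in 7 of 32 (21.9%), beside 5.19% of all. The ERR motif TNAAGGTCA occurred in 1 of 32 (3.12%), beside 1.43%, and the ETS motif CCGGAAG in 4 (12.5%), beside 9.93%. CCAAT occurred in 10 (31.2%), beside 41.1%, and TATAAA in 4 (12.5%), beside 15.7%. None of the 5 core genes matched had the NRF1 motif, and Ndufb4 had it at 3 places. No motif was tested against level.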
